A study of Homo sapiens with 15 samples.

Results

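The miRNA response to low oxygen was measured in U87-MG, a long-established line of human glioblastoma cells, in cultures without a HIF knockout. The comparison rested on 6 of the 15 miRNA-Seq libraries: 3 from control cells (genotype WT) kept in 1% O2 for 24 h, and 3 from control cells kept in 21% O2. The other 9 libraries came from cells in which CRISPR/Cas9 had knocked out HIF1α, HIF2α or both, cultured in 1% O2. They entered the estimate of the spread, and no knockout library was cultured in 21% O2. Whether replicates were separate cultures, and whether the knockout lines were clones, is not given in the sources used here, so p-values measure the spread between these libraries, which may be technical.

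Mature miRNAs are short RNAs cut from the 5′ (5p) or 3′ (3p) side of a hairpin, and they repress mRNAs that pair with their seed, bases 2 to 8. In low oxygen the HIF1α and HIF2α proteins are no longer degraded and switch on target genes. miR-210 is the best known HIF target among miRNAs and dampens mitochondrial iron-sulphur cluster assembly through ISCU. Other miRNAs called hypoxamiRs, such as the miR-23/24/27 clusters, miR-26, miR-107 and miR-181, were reported as induced by hypoxia in several tumour cell types, and members of the miR-17-92 cluster, miR-15/16, miR-199a and miR-200b as reduced.

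The sequences on which the results turn are from RefSeq (GRCh38.p14) and are shown with the seed in capitals. The pair from the MIR210 hairpin (chr11:568089-568198, minus strand, 110 bases, in the long noncoding RNA gene MIR210HG) is rich in G and C, with 63.6% in the 3p and 72.7% in the 5p strand.
miR-210-3p: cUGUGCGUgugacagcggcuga
miR-210-5p: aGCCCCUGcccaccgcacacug

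Reported hypoxamiRs with a near-identical partner are shown because the counting could have split or shared their reads. miR-27a-3p and miR-27b-3p differ at 1 of 21 bases, miR-23a-3p and miR-23b-3p at 1 of 21, and miR-26a-5p and miR-26b-5p at 2 of 21. miR-1297 has the miR-26 seed and matches miR-26b-5p at 15 of 17 bases.
miR-23a-3p: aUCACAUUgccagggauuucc
miR-23b-3p: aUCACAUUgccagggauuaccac
miR-27a-3p: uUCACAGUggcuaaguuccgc
miR-27b-3p: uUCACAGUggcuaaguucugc
miR-26a-5p: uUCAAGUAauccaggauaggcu
miR-26b-5p: uUCAAGUAauucaggauaggu
miR-1297: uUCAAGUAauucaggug

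The next set holds miRNAs whose hypoxic and normoxic values did not overlap, with miR-221-3p, whose values overlapped, as the partner of miR-222-3p. miR-221-3p and miR-222-3p (chrX:45747036-45747056, minus strand) come from the same transcript and share a seed. let-7a-5p, let-7f-5p, let-7g-5p and let-7i-5p also share a seed. miR-379-3p (chr14:101022109-101022130) and miR-411-3p (chr14:101023375-101023396), neighbours on the plus strand of chromosome 14, share a seed and differ at 2 of 22 bases.
miR-221-3p: aGCUACAUugucugcuggguuuc
miR-222-3p: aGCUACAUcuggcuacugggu
let-7a-5p: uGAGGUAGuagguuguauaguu
let-7f-5p: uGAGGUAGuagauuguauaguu
let-7g-5p: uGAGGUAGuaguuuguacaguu
let-7i-5p: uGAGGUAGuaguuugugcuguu
miR-379-3p: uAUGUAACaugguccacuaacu
miR-411-3p: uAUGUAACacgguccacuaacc
miR-320b: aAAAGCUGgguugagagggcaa
miR-320c: aAAAGCUGgguugagagggu
miR-320d: aAAAGCUGgguugagagga

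The last set shows miRNAs poor in G and C, which differed most between the libraries.
miR-190a-5p: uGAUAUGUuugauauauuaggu
miR-374a-3p: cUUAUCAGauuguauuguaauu
miR-590-3p: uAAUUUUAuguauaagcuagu
miR-1-3p: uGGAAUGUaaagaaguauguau

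The libraries of the 6 control samples held 10620234 to 22496373 counts, and the detection limit of 3 counts was at most 0.282 CPM (counts per 1e6 counts), which covers counting error only. The miRNAs typical of glioblastoma lines were abundant: miR-21-5p made up as much as 21.0% of the normalized counts, and miR-221-3p, miR-222-3p, miR-10b-5p and miR-196a-5p were present in every control library. Markers of other cell types were present at low levels and moved between libraries of the same group. Endothelial miR-126-3p was at 17.8, 27.8 and 37.7 CPM in the normoxic libraries and at 49.95, 4.19 and 5.02 CPM in the hypoxic ones. The 4 tested mesenchymal markers summed to 276 to 483 CPM in normoxia and 138 to 572 CPM in hypoxia, the 6 tested epithelial ones to 73.0 to 102 and 48.5 to 118 CPM, and the 3 tested blood ones to 11.5 to 17.9 and 4.58 to 22.6 CPM, in each case with hypoxic replicate 1 highest and hypoxic replicates 2 and 3 below all normoxic libraries. Not all members moved with the sums. Of the epithelial ones 5 had negative log2 fold changes and 1, miR-200c-3p, a positive one (0.09). Of the blood ones 2 had negative log2 fold changes and 1, miR-142-3p, a positive one (0.67). Among blood markers that were not tested, miR-486-5p had at most 1 count in a library. miRNAs with under 30% GC summed to 36.2, 24.7 and 58.0 CPM in the normoxic libraries and to 60.5, 164 and 213 CPM in the hypoxic ones, so that hypoxic replicates 2 and 3 stood apart from hypoxic replicate 1. Across all tested miRNAs, hypoxic replicates 2 and 3 had a rank correlation of 0.984 with each other, and of 0.953 and 0.942 with hypoxic replicate 1. Results that rest on hypoxic replicates 2 and 3 are given below with the value in replicate 1.

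No miRNA passed the test. Of the 1707 miRNAs listed, 562 passed the filter on low counts, and edgeR's quasi-likelihood test put 0 of them (0.0%) below the threshold of 0.05 after adjustment. The smallest adjusted p in edgeR was 0.115, for miR-379-3p. DESeq2 and limma also gave 0 calls. At an unadjusted p under 0.05 there were 35 miRNAs in edgeR (6.23% of those tested), 30 in DESeq2 and 26 in limma. In edgeR, 18 of the 35 were higher (3.2%) and 17 lower (3.02%) in hypoxia, a split that became 26 and 8 with total counts and 9 and 17 in limma. The count of passing miRNAs rested on the filter: when all 1707 miRNAs were fitted, 13 were higher and 2 lower at an adjusted p under 0.05, all 15 of which had been tested and not called with the filter.

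The precision of these libraries varied between miRNAs. For 329 miRNAs (58.5%) the 95% interval of the fold change lay within 2-fold in either direction, while the standard error (SE) of the log2 fold change ranged from 0.09 to 1.60, with a median of 0.28. The median log2 fold change was 0.01. The log2 fold change was at least 1 for 26 miRNAs and at most -1 for 5. Of these 31, miR-26b-5p had the highest mean level, as the plot of fold change against level shows.

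**Figure D1:**
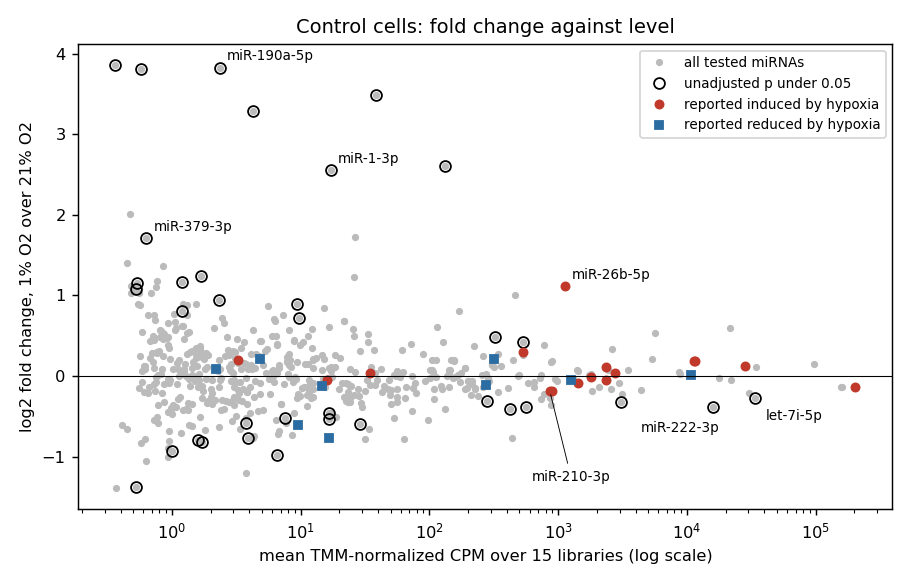
Each point is a tested miRNA, with its mean TMM-normalized CPM over 15 libraries on a log axis and its log2 fold change in control cells at 1% O2 over 21% O2. Open circles mark the 35 miRNAs with an unadjusted p under 0.05, none of which passed after adjustment, and the 16 tested miRNAs reported as induced by hypoxia (red) lie around 0 except miR-26b-5p. Fold changes of miRNAs with few normoxic counts, such as miR-190a-5p, depend on the small count that edgeR adds.

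miR-210-3p was not higher in the libraries labelled hypoxic than in those labelled normoxic. The oxygen condition of each library rests on its label alone, since no other measurement here checks it, which bears on every value compared between the conditions. Whether the labels are right was not tested. Hypoxic replicate 1 lay within the normoxic range for some miRNAs, such as miR-26b-5p, and with hypoxic replicates 2 and 3 outside it for others, such as miR-222-3p. miR-210-3p stood at 1018, 1308 and 1237 CPM in the normoxic libraries and at 1153, 1039 and 935 CPM in the hypoxic ones. The groups overlapped, and the lowest of the 6 values was a hypoxic one. The means were 1188 ± 151 (SD, n = 3) and 1042 ± 109 CPM (SD, n = 3), the log2 fold change was -0.19 (SE 0.30, 95% interval -0.84 to 0.46) and the adjusted p of edgeR was 0.841, so that a 2-fold rise lay outside the interval. A two-sided exact permutation test gave p = 0.3, where 3 libraries against 3 cannot give a p below 0.1. After a correction for GC content the log2 fold change was -0.06 (SE 0.26).

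miR-210-5p, the minor strand of the same hairpin, was at 38.5, 46.7 and 57.0 CPM in normoxia and at 68.2, 42.1 and 36.0 CPM in hypoxia. The hypoxic libraries held both the highest and the lowest value, and the log2 fold change was 0.04 (SE 0.29, edgeR adjusted p = 0.971). The 3p strand made up 95.6 to 96.6% of the miR-210 counts in normoxia and 94.4 to 96.3% in hypoxia. The HIF1α-KO libraries, all hypoxic, had 250, 240 and 436 CPM of miR-210-3p, and the HIF1α/HIF2α-KO libraries 181, 146 and 348 CPM, all below the 3 normoxic control libraries, whereas the HIF2α-KO libraries had 1443, 1996 and 1210 CPM. These levels are shown in the plot of miR-210 by library, without a test of knockout cells in hypoxia against control cells in normoxia.

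**Figure D2:**
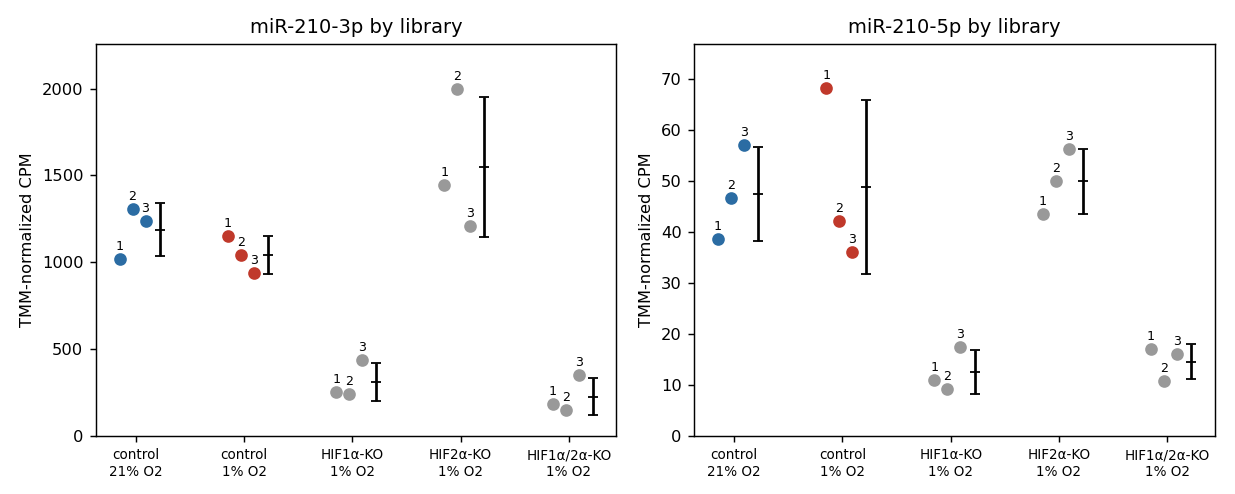
TMM-normalized CPM of miR-210-3p (left) and miR-210-5p (right) in each of the 15 libraries, with the replicate number above each point and the mean and SD of the 3 replicates as a bar. In control cells the 21% O2 (blue) and 1% O2 (red) libraries overlap for both strands, between 935 and 1308 CPM for miR-210-3p.

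The wider set of miRNAs reported as induced by hypoxia differed little between the conditions. Of the 18 in the list, 16 were tested, miR-103a-3p was not analysed here, and miR-373-3p had at most 1 count in a control library. None of the 16 passed the test, 0 had an unadjusted p under 0.05 (background 6.23%), and the median log2 fold change was 0.04, against 0.01 over all tested miRNAs. For 15 of the 16, miR-26b-5p being the exception, the 95% interval lay within 2-fold in either direction. In 3 members the hypoxic values all lay above the normoxic ones (7.83% of all tested miRNAs) and in 1, miR-181b-5p, all below (9.96%).

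The 3 members with higher, non-overlapping values belong to the miR-23/27/24 clusters on chromosomes 9 and 19. miR-27a-3p, which targets regulators of lipid metabolism and cell growth, was at 11165, 12019 and 11402 CPM in normoxia and at 12367, 12970 and 13979 CPM in hypoxia (log2 fold change 0.18, SE 0.10, edgeR adjusted p = 0.724). The gap between the groups was small, from 12019 to 12367 CPM. miR-27b-3p had 0.986 to 0.994 times the level of miR-27a-3p in all 6 libraries, so that these 2 are not independent. miR-23a-3p was at 2136, 2239 and 2168 CPM in normoxia and at 2402, 2388 and 2252 CPM in hypoxia (log2 fold change 0.11, SE 0.09). The ratio of miR-23b-3p to miR-23a-3p was 1.24 to 1.25 in normoxia and 1.18 to 1.19 in hypoxia, without overlap. It was one of several ratios computed here, of which some overlapped between the conditions and others did not. The counting could have shared reads of this near-identical pair. The third miRNA of these clusters, miR-24-3p, had a log2 fold change of -0.05 (SE 0.13) and overlapping values.

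miR-26b-5p had the highest log2 fold change of the reported hypoxamiRs, at 1.11 (SE 0.55, edgeR adjusted p = 0.724). It was at 726, 527 and 876 CPM in normoxia and at 851, 1723 and 2034 CPM in hypoxia. Hypoxic replicate 1 lay within the normoxic range, and hypoxic replicates 2 and 3 were each above all normoxic libraries. miR-26a-5p, which shares the seed and is the more abundant, was at 26867, 24813 and 25480 CPM in normoxia and at 23533, 30079 and 30533 CPM in hypoxia, again with replicate 1 apart from replicates 2 and 3. The minor strand miR-26b-3p had a log2 fold change of 0.07. After the GC correction the log2 fold change of miR-26b-5p was 0.62 (SE 0.27) and that of miR-26a-5p -0.01 (SE 0.13).

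Among the other members, miR-155-5p, an inflammation-linked miRNA that targets VHL, was at 541, 443 and 536 CPM in normoxia and at 431, 708 and 728 CPM in hypoxia. Its groups overlapped through hypoxic replicate 1, and its log2 fold change was 0.30 (SE 0.27), or 0.01 (SE 0.18) after the GC correction. miR-21-5p, the abundant oncogenic miRNA of glioblastoma, was at 194917, 166277 and 209527 CPM in normoxia and at 167543, 160475 and 192576 CPM in hypoxia (log2 fold change -0.13, SE 0.13). Its log2 fold change was -0.44 (SE 0.25) after the GC correction. miR-181b-5p was at 930, 971 and 891 CPM in normoxia and at 825, 787 and 839 CPM in hypoxia, lower without overlap (log2 fold change -0.19, SE 0.13, edgeR adjusted p = 0.791). miR-107 and miR-181a-5p had log2 fold changes of -0.09 and -0.01.

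The 9 miRNAs reported as reduced by hypoxia were all tested, and 0 passed the test or had an unadjusted p under 0.05 (background 6.23%). Their median log2 fold change was -0.05, or 0.01 with hypoxic replicate 1 as the only hypoxic library. Of the 9, 0 had values that did not overlap (background 17.8%). The abundant miR-92a-3p, of the miR-17-92 cluster, was at 10083, 10811 and 10022 CPM in normoxia and at 12527, 9178 and 9550 CPM in hypoxia (log2 fold change 0.02, SE 0.13). The lowest log2 fold changes were those of miR-199a-5p (-0.77, SE 0.74) and miR-200b-3p (-0.61, SE 0.60), which are also markers of mesenchymal and epithelial cells. miR-199a-5p was at 23.2, 23.4 and 32.5 CPM in normoxia and at 34.1, 6.31 and 6.41 CPM in hypoxia, the same order of libraries as miR-126-3p. The part of other cells or carried-over RNA in these values was not tested.

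Most families had medians close to that of all miRNAs, as the plot of fold changes by family shows. The family of miR-15, miR-16, miR-424 and miR-503 had 8 of 8 members within 2-fold by their intervals and a median log2 fold change of 0.01, which turned negative with the size factors of DESeq2, in limma and after the GC correction. The miR-30 and miR-181 families had all 7 and all 6 members within 2-fold and medians of 0.08 and 0.05. With hypoxic replicate 1 as the only hypoxic library the miR-30 median was -0.10. In the miR-17-92 cluster and its paralogs 15 of 16 members were tested, 14 had intervals within 2-fold, and the median was 0.07. Of these, miR-93-5p was at 947, 903 and 871 CPM in normoxia and at 797, 730 and 733 CPM in hypoxia, lower without overlap (log2 fold change -0.27, SE 0.16, edgeR adjusted p = 0.785).

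The other lists gave similar counts. The miR-29 family had a median log2 fold change of 0.11 over 6 members, negative after the GC correction. miR-29c-3p, a repressor of collagen genes, was at 24.7, 19.8 and 26.0 CPM in normoxia and at 27.3, 34.1 and 40.2 CPM in hypoxia, higher without overlap (log2 fold change 0.53, SE 0.28). The HOX-cluster miRNAs (median 0.25 over 6) and the miR-130 family (0.26 over 3) had 0 members with an unadjusted p under 0.05 (background 6.23%, from which 0 in lists this small cannot be told apart), and with hypoxic replicate 1 as the only hypoxic library their medians were -0.22 and 0.02. The miR-532 cluster (-0.07 over 12), the miR-183 cluster (-0.24 over 3), miR-34 with miR-192, miR-194 and miR-215 (-0.03 over 6), miR-378 (-0.05 over 6) and miR-105 with miR-767 (0.10 over 4) also had 0. In the miR-34 group the sign of the median flipped with total counts, and in the miR-378 family after the GC correction. With hypoxic replicate 1 as the only hypoxic library, the medians were -0.20 for miR-29, 0.05 for miR-532 and 0.12 for the miR-34 group. Without that library they were 0.01 for miR-378 and -0.12 for miR-105 with miR-767.

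Within the let-7 family, which represses RAS, MYC and HMGA2, members lay on both sides. let-7i-5p (chr12:62603691-62603712) was at 41271, 42643 and 45263 CPM in normoxia and at 33246, 36294 and 36888 CPM in hypoxia. The hypoxic values were all lower, with a log2 fold change of -0.28 (SE 0.11, edgeR adjusted p = 0.701). let-7g-5p, which differs from it at 2 of 22 bases, was at 35097, 36642 and 39730 CPM in normoxia and at 29604, 33244 and 33727 CPM in hypoxia (log2 fold change -0.21, SE 0.12). For both, each hypoxic library, replicate 1 included, lay below each normoxic library. After the GC correction the log2 fold change was -0.41 (SE 0.12, edgeR adjusted p = 0.486) for let-7i-5p. For let-7g-5p it was -0.53 (SE 0.20, edgeR adjusted p = 0.546).

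The other 7 let-7 members had positive log2 fold changes, and the median of the 9 was 0.11, or -0.04 after the GC correction. let-7a-5p was at 98902, 105054 and 100127 CPM in normoxia and at 105360, 113231 and 117278 CPM in hypoxia (log2 fold change 0.14, SE 0.17, or -0.18, SE 0.18, after the GC correction). let-7f-5p, which differs from let-7a-5p at 1 of 22 bases, was at 16914, 14675 and 20620 CPM in normoxia and at 20878, 27574 and 30464 CPM in hypoxia (log2 fold change 0.60, SE 0.37, edgeR adjusted p = 0.791). After the GC correction its log2 fold change was 0.04 (SE 0.12). Neither pair of groups overlapped, although hypoxic replicate 1 was close to the highest normoxic library in both. The values were 105360 against 105054 CPM for let-7a-5p and 20878 against 20620 CPM for let-7f-5p. The hairpins of let-7a-1, let-7f-1 and let-7d form a cluster (chr9:94175957-94178920) in which all 6 tested strands had positive log2 fold changes before the GC correction, with a median of 0.32. Their median GC content was 38.6%. let-7a-5p is encoded at 3 loci, and let-7f-5p and let-7a-3p at 2 each, so their counts cannot be assigned to this cluster.

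miR-222-3p was lower in every hypoxic library, and its neighbour miR-221-3p overlapped. Both repress the cell cycle inhibitor p27 (CDKN1B). miR-222-3p was at 19232, 18420 and 17609 CPM in normoxia and at 14384, 13865 and 14062 CPM in hypoxia. The hypoxic libraries spread over less than the gap to the lowest normoxic library, with a log2 fold change of -0.39 (SE 0.14, 95% interval -0.69 to -0.08) and an adjusted p of 0.701 in edgeR. miR-221-3p was at 22657, 23193 and 21137 CPM in normoxia and at 22306, 20601 and 21584 CPM in hypoxia, with overlap (log2 fold change -0.05, SE 0.12). The ratio of miR-222-3p to miR-221-3p was 0.849, 0.794 and 0.833 in normoxia and 0.645, 0.673 and 0.652 in hypoxia. This ratio, singled out after its values were seen, did not overlap between the conditions and shows unequal levels of the pair, not which of them moved.

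The miR-320 family, chosen here after its values were seen, had negative log2 fold changes in all 5 tested members, with a median of -0.41. miR-320a-3p was at 499.9, 496 and 439 CPM in normoxia and at 337, 365 and 381 CPM in hypoxia (log2 fold change -0.41, SE 0.17, edgeR adjusted p = 0.701). miR-320b was at 648, 658 and 566 CPM in normoxia and at 451, 484 and 499.7 CPM in hypoxia, again without overlap (log2 fold change -0.38, SE 0.17). miR-320c and miR-320d had log2 fold changes of -0.59 and -0.58 (SE 0.24 for each). The members differ at few bases, miR-320b and miR-320c at 1 of 20, and miR-320b had 1.29 to 1.34 times the level of miR-320a-3p in all 6 libraries, so that their reads may be shared and the members are not independent.

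**Figure D3:**
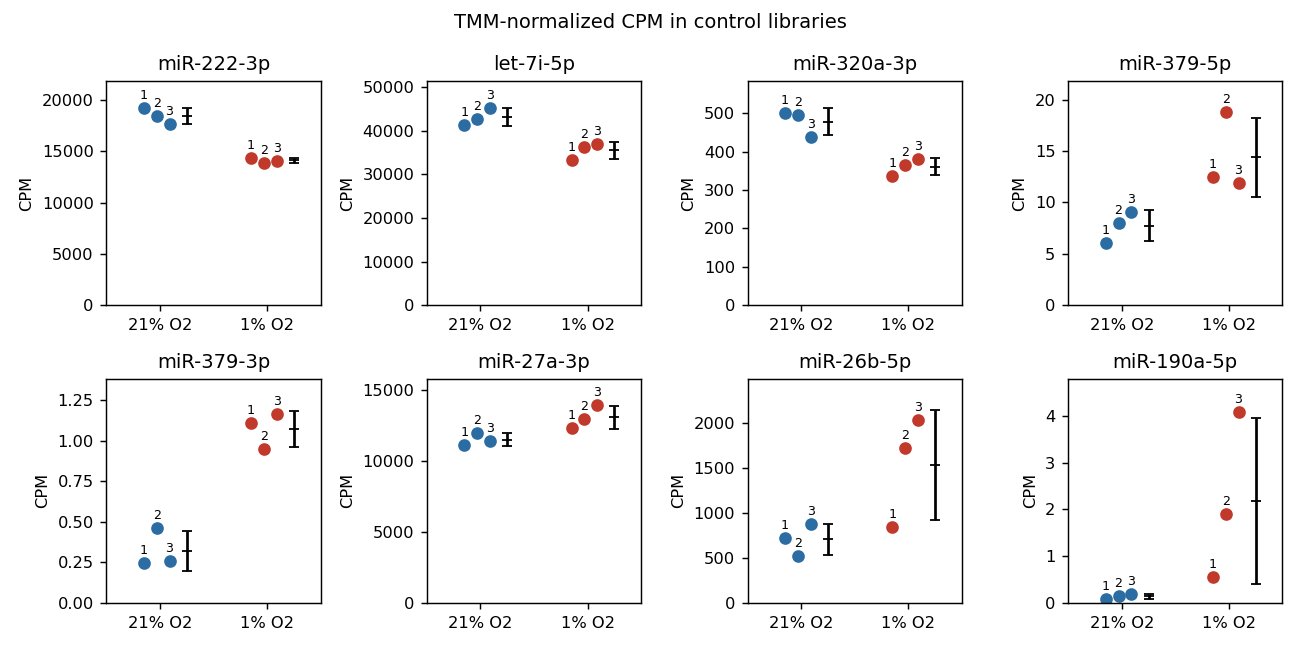
TMM-normalized CPM of 8 miRNAs in the control libraries at 21% O2 (blue) and 1% O2 (red), with the replicate number above each point and the mean and SD of the 3 replicates as a bar. miR-222-3p, let-7i-5p and miR-320a-3p are lower in every hypoxic library, miR-379-5p, miR-379-3p, miR-27a-3p and miR-190a-5p are higher in every one, and miR-26b-5p is above the normoxic range in hypoxic replicates 2 and 3.

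Other miRNAs with the lowest p-values and lower, non-overlapping values in hypoxia were of low level, apart from miR-425-5p. miR-425-5p was at 307, 308 and 317 CPM in normoxia and at 229.9, 273 and 248 CPM in hypoxia (log2 fold change -0.31, SE 0.13, edgeR adjusted p = 0.701). miR-365a-5p was at 8.45, 8.87 and 9.47 CPM in normoxia and at 5.16, 5.14 and 3.20 CPM in hypoxia, with a log2 fold change of -0.99 (SE 0.31, edgeR adjusted p = 0.661). The rule that chose these miRNAs required hypoxic values all below the normoxic ones, as held for 9.96% of all tested miRNAs. It also chose miR-4435 (log2 fold change -0.77), miR-449c-5p (-0.54), miR-942-3p (-0.82) and miR-152-5p (-0.46).

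The imprinted 14q32 clusters, whose miRNAs are made from the maternal chromosome and are mostly silent in many tumours, had the highest median of the 18 miRNA lists, marker lists not counted. Of the 35 listed, 23 were tested, with a median log2 fold change of 0.49 against 0.01 over all tested miRNAs. In 19 of the 23 it was positive. In 5 the unadjusted p was under 0.05 and the value higher (background 3.2%), and 5 were higher without overlap (background 7.83%), but 0 passed the test. Some of the 23, such as miR-369-3p at 0.244, 0.077 and 0.258 CPM in normoxia, passed the filter only through hypoxic libraries. That favours positive log2 fold changes in this list, and its part in the median was not tested. Members of a cluster may also not vary independently. The median stayed positive in all 18 alternatives, between 0.27 and 0.74, and was 0.67 with hypoxic replicate 1 as the only hypoxic library and 0.44 after the GC correction. Levels were low: the 23 summed to 67.5, 126.3 and 113 CPM in normoxia and to 124, 166 and 102 CPM in hypoxia, with overlap.

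The lowest p-value of all belonged to the MIR379 hairpin at the start of the larger cluster (chr14:101022066-101066801, 40 hairpins). miR-379-3p had 3, 6 and 4 counts in normoxia and 12, 22 and 16 counts in hypoxia, or 0.244, 0.463 and 0.258 against 1.11, 0.951 and 1.16 CPM. The values did not overlap, and the log2 fold change was 1.71 (SE 0.34, edgeR adjusted p = 0.115), a level at which single counts matter. Its normoxic counts were all below the minimum count of the filter, so that miR-379-3p passed the filter only through hypoxic libraries. That favours a positive log2 fold change, and its part in this result was not tested. The major strand miR-379-5p was at 6.09, 8.02 and 9.09 CPM in normoxia and at 12.4, 18.8 and 11.9 CPM in hypoxia, also without overlap (log2 fold change 0.90, SE 0.29, edgeR adjusted p = 0.661). miR-411-3p, with the same seed as miR-379-3p, was at 1.14, 1.23 and 1.03 CPM in normoxia and at 1.47, 1.86 and 2.62 CPM in hypoxia (log2 fold change 0.81, SE 0.30). The most abundant member of the list, miR-381-3p, overlapped, at 27.1, 47.4 and 49.2 CPM in normoxia and 45.9, 67.9 and 40.9 CPM in hypoxia (log2 fold change 0.32, SE 0.26).

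Most of the largest log2 fold changes were those of miRNAs poor in G and C, as the plot of deviation by GC content shows. Of the 562 tested miRNAs 513 had a GC value. The 12 with under 30% GC had a median log2 fold change of 1.87, with a median SE of 0.93, the 31 with 30 to under 35% GC had 0.59, and the 89 with 60% or more had -0.12. Some of the 12 passed the filter only through hypoxic libraries, such as miR-190a-5p, at 0.081, 0.154 and 0.193 CPM in normoxia. That favours a high median in this bin, and the size of such fold changes depends on the small count that edgeR adds. Across the 513 miRNAs, which share the same 6 libraries, Pearson's r between GC content and log2 fold change was -0.43 and Spearman's rho -0.38. The deviation was largest in hypoxic replicates 2 and 3: in the 31 miRNAs with 30 to under 35% GC their medians were 0.50 and 0.62 above the normoxic mean on the log2(CPM + 1) scale, and that of hypoxic replicate 1 was 0.01. Of the 9 knockout libraries, all hypoxic, 6 had a higher sum of miRNAs with under 30% GC than any normoxic library, and the range was 18.5 to 257 CPM. The part of library preparation in this pattern was not tested, and none of the 562 passed the test.

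**Figure D4:**
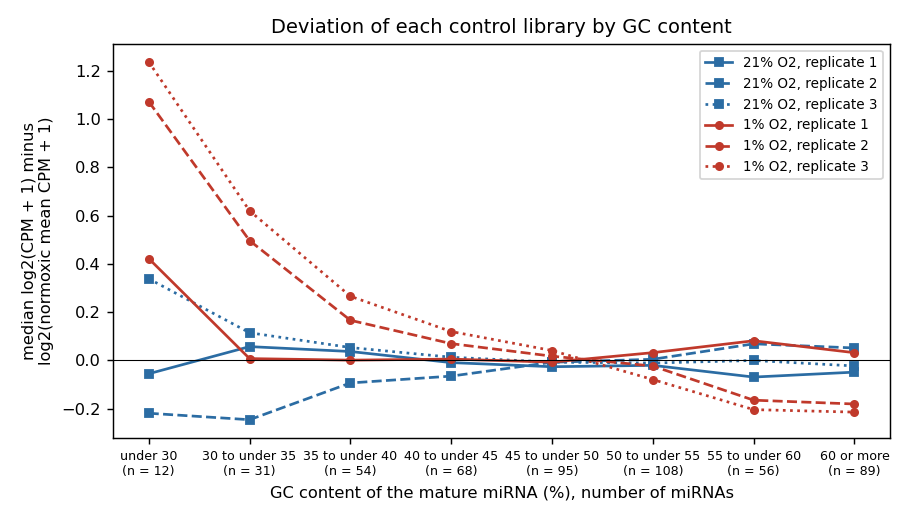
Median deviation of log2(CPM + 1) from log2(normoxic mean CPM + 1) for miRNAs grouped by the GC content of the mature sequence, with a line for each of the 6 control libraries (blue squares 21% O2, red circles 1% O2). Hypoxic replicates 2 and 3 lie highest in the bins under 40% GC and lowest in those of 55% or more, while hypoxic replicate 1 stays near the normoxic libraries from 30% GC upwards.

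miR-1-3p, typical of muscle, was at 0.975, 1.85 and 5.41 CPM in normoxia and at 4.79, 18.3 and 25.9 CPM in hypoxia. Hypoxic replicate 1 fell within the normoxic range and replicates 2 and 3 above it (log2 fold change 2.55, SE 0.94, or 1.58, SE 0.64, after the GC correction, edgeR adjusted p = 0.701 without it). The other muscle markers miR-133a-3p and miR-133b, of higher GC content, had log2 fold changes of 0.60 and 0.66 with overlap. miR-374a-3p, named after its values were seen, likewise had hypoxic replicate 1 within the normoxic range and replicates 2 and 3 above it, at 1.79, 0.848 and 8.31 CPM in normoxia and 5.16, 47.4 and 72.6 CPM in hypoxia. miR-590-3p, with the lowest GC content of these at 19.0%, was at 0.244, 0.231 and 0.838 CPM in normoxia and at 1.01, 5.10 and 7.35 CPM in hypoxia, higher without overlap (log2 fold change 3.29, SE 1.30, or 1.63, SE 0.56, after the GC correction). miR-190a-5p had 1, 2 and 3 counts in normoxia and 6, 44 and 56 counts in hypoxia. The neural miRNA miR-9-5p, at 34.8% GC, was at 4952, 3892 and 5312 CPM in normoxia and at 4753, 7733 and 8019 CPM in hypoxia, with replicate 1 again within the normoxic range (log2 fold change 0.53, SE 0.39, or 0.13, SE 0.15, after the GC correction).

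The strands of a hairpin come from the same precursor. Of 142 hairpins with both strands tested, 88 (62.0%) had log2 fold changes of the same sign in both, 41 higher and 47 lower, and the median difference in size between the strands was 0.20. In let-7a, the strands were apart: let-7a-3p (33.3% GC) had a log2 fold change of 1.01 (SE 0.71) and let-7a-5p (36.4% GC) of 0.14. let-7a-3p, named after its values were seen, was at 296, 180 and 427 CPM in normoxia and at 275, 682 and 860 CPM in hypoxia, once more with only hypoxic replicates 2 and 3 above the normoxic range. Among the 7 seed families with at least 4 tested members, the median log2 fold change was between -0.05 and 0.70, the highest being that of the 4 members with the seed UAUACAA, which include let-7a-3p.

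miR-100-5p and miR-99a-5p, the most abundant miRNAs after miR-21-5p, overlapped between the conditions. miR-100-5p was at 166788, 172801 and 171705 CPM in normoxia and at 170194, 148130 and 145733 CPM in hypoxia, with hypoxic replicate 1 within the normoxic range (log2 fold change -0.14, SE 0.13). miR-99a-5p, which differs from it at 1 of 22 bases, had 0.982 to 0.985 times its level in all 6 libraries, so that the 2 cannot be told apart by these counts. miR-125b-5p, encoded next to both, was at 18415, 19324 and 17996 CPM in normoxia and at 17897, 18470 and 18498 CPM in hypoxia (log2 fold change -0.02, SE 0.10, 95% interval -0.23 to 0.19).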

How the data were processed

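Per library, the authors deposited a table of unnormalized read counts on mature miRNAs; the labels' processing notes name HISAT2, StringTie and DESeq2 without versions or roles, and the genome build and read filters are not given in the sources used here. Libraries were grouped by the genotype, oxygen and replicate labels. Counts of all 15 libraries were fitted in edgeR 4.0.16 (R 4.3.3) with TMM factors, filterByExpr (minimum count 10, over all 5 groups) and a mean per group, and the hypoxic minus normoxic control contrast was tested by quasi-likelihood, adjusted by Benjamini-Hochberg over 562 miRNAs (threshold 0.05). CPM are TMM-normalized. DESeq2 1.42.0 and limma 3.58.1 (quantile-normalized log2(CPM + 1)) were alternatives, as were other scalings, filters, sample sets and each control library left out. The fits were tested on simulated data. The GC correction (loess, span 0.75) and the fit with hypoxic replicate 1 alone were added after seeing the data. Members and lists were chosen with earlier results of these data known. Named miRNAs are miR-210, the 10 lowest p-values in each direction among those without overlap, all tested hypoxamiRs and up to 4 abundant members of each other list; others are said to be named after their values were seen. Same-numbered libraries had correlations of deviations from their group mean of -0.32, -0.11 and -0.07, and others ranged from -0.37 to 0.42. With 3 libraries per group these cannot decide whether the numbers pair libraries, and the main fit used no pairing. No replicates were copies (chi-square per degree of freedom 49.3 or more).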

Additional observations from a re-analysis of the deposited data

How the results depend on the processing

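The 16 planned and 2 added alternatives left miR-210-3p with a negative log2 fold change and an adjusted p above the threshold (0.558 to 0.997). The log2 fold change was -0.29 to -0.12 when each control library was left out in turn, -0.20 in DESeq2, -0.21 in limma and -0.05 with hypoxic replicate 1 as the only hypoxic library. The counts of miRNAs higher, lower and changed were 0 in every alternative except the fit without a filter on low counts, with 13, 2 and 15, and they were 0 to 0 when each control library was left out in turn. Of the 13 higher, 12 had a GC value, between 19.0 and 35.3%, against a median of 47.8% over tested miRNAs. They were let-7a-3p, let-7f-5p, miR-1-3p, miR-1252-5p, miR-1297, miR-190a-5p, miR-26b-5p, miR-374a-3p, miR-374a-5p, miR-450b-5p, miR-577, miR-590-3p and miR-9-3p, and the lower ones were miR-378b and miR-4521; the cause was not tested. miR-1297 had 0, 1 and 2 counts in normoxia and 1, 35 and 23 in hypoxia, and miR-1252-5p had 0, 0 and 1 against 0, 10 and 13. At an unadjusted p under 0.05 the count was 35, and 72 without hypoxic replicate 1 and 61 with only the 6 control libraries fitted, still with 0 calls. With the replicate block it was 34, with 0 calls and a log2 fold change of -0.17 for miR-210-3p. Of the 117 named miRNAs, 61 had a change of sign in some alternative, in no case with an adjusted p under 0.05 where the sign differed, and 5 were called in some alternative, all in the fit without a filter. The leave-out of hypoxic replicates 2 and 3 left 1 hypoxic control library, which was assumed to vary like the other groups.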
